A study of Homo sapiens with 30 samples.

Results

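Antisense long noncoding RNAs are transcripts read from the strand opposite a gene, and by convention each takes the symbol of that gene, here called its sense gene, followed by -AS and a number. They are capped RNAs that are often spliced but make no known protein, many stay in the nucleus, and many of the unstable ones are degraded there by the nuclear exosome. Their loci are of several kinds. Some start beside the promoter of the sense gene and run away from it, some overlap it head to head, and some lie wholly inside it, so a pair can share a promoter region, share transcribed bases or share neither. The question put to the data was which of these lncRNAs differed between PANC-1 tumoroids whose synthetic cells carried different immune proteins, and whether the sense gene of each differed as well.

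The set consisted of the genes whose symbol ends in -AS and a digit and whose mean expected count over the 30 libraries was at least 50. There were 252 of them, of 1807 genes so named and 60483 gene records in all. A further 1555 fell below the minimum, 350 of which had no count in any library. EXOSC10-AS1 and TAF1A-AS1, with means of 49.2 and 49.9 counts, lay just below it, and TMEM51-AS1 and RUSC1-AS1, with 50 and 50.1, just above. The members were thus chosen by their mean expected count, and levels are given as a description without a test. The rule on name and count used no difference between groups, but the set was chosen with earlier results of these data known. All 252 had a count in every library and passed the filter on low counts that preceded testing. The annotation typed 249 as lncRNA and 3 as transcribed pseudogenes. A sense gene of the matching symbol was in the table for 247 members. The other 5 take the name of a HOX gene cluster.

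PANC-1 is a human pancreatic ductal adenocarcinoma line, and every culture was a 3D tumoroid of wild-type PANC-1 cells grown without any other living cell. In hybrid tumoroids the cells had assembled with droplet-supported lipid bilayers (DSLBs), oil droplets in a lipid bilayer that serve as synthetic cells. The DSLBs carried recombinant PD-1 and a second protein, which was a costimulatory receptor or ligand (CD2, CD27, ICOS or CD40L) or an inhibitory receptor (CTLA4, LAG3 or TIGIT), named PD-1/CD2 and so on. Other DSLBs carried PD-1 alone or no protein (plain DSLB), and DSLB-free tumoroids held no droplets. Each of these 10 groups had 3 cultures, described by the study as parallel biological replicates of the same line, so p-values measure the spread between such cultures. Depth, as the sum of expected counts, was 21.9 to 60.5 M (median 40.6 M), and the members took 0.156% to 0.198% of them. Of the epithelial markers, KRT8 had 2428 to 3465 TPM, KRT18 1103 to 1765 TPM and KRT19 759 to 1717 TPM. Others were lower, with KRT7 at 7.94 to 16.38 TPM, CDH1 at 19.45 to 49.16 TPM and EPCAM at 46.68 to 78.89 TPM. The mesenchymal filament VIM had 2128 to 2983 TPM. Among markers of leukocytes, endothelium, fibroblasts and acinar or islet cells, CD14 reached 1.60 TPM and LUM 0.80 TPM, and the rest stayed at or below 0.40 TPM. PD-1 replicate 1, PD-1/LAG3 replicate 3 and DSLB-free replicate 2 stood apart from the other replicates of their groups in earlier results of these data, and mitochondrial genes took 2.66%, 1.71% and 3.19% of their counts against a median of 4.70% over all libraries. Counts of called members are also given without these 3.

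Reads of an antisense RNA and of its sense gene can be told apart only if the strand was kept. The kit was directional, and the strand setting of the counting is not given in the sources used here. RSEM's own posterior SD of a gene's count bears on that setting, as it is above 0 where reads could belong to more than 1 gene. It cannot show whether the library kept the strand of every read, since a read with the wrong strand could also be assigned without doubt. Of 180 members with exonic bases on exons of the sense gene on the other strand, 151 (83.9%) had a posterior SD of 0 in every library. PCF11-AS1 lies with 100% of its exonic bases inside exons of PCF11, which stood at 39.7 TPM, and its posterior SD was 0 throughout. The same held for AP1G2-AS1, with 83.3% of its exonic bases on AP1G2. The counts of 5 members, namely TMLHE-AS1, OR2A1-AS1, ARHGEF35-AS1, HILPDA-AS1 and ZFHX2-AS1, were uncertain, with a posterior SD above 5% of the count, and none of these is drawn on here.

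In GENCODE v44 on GRCh38, 126 members overlapped the sense gene with start sites more than 1 kb apart, 65 overlapped it with starts within 1 kb, and 35 lay wholly inside it. A further 16 were divergent without overlap, 2 were tail to tail and 3 were annotated on the same strand as the gene they are named for. The mean TPM of a member, which is scaled for length, had a median of 4.21 and ran from 0.329 to 69.1. It was at least 1 TPM for 235 members and at least 10 TPM for 55. The 10 most abundant held 23.6% of the summed TPM. They were LMNTD2-AS1 at 69.1 TPM, FGD5-AS1 at 60.1, MRPL20-AS1 at 46.8, EPB41L4A-AS1 at 46.7, OIP5-AS1 at 44.3, NUTM2A-AS1 at 33.7, MAPKAPK5-AS1 and THAP9-AS1 at 33.3 each, KRT10-AS1 at 33.2 and NR2F1-AS1 at 32.6.

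Most members were less abundant than their sense gene. The median ratio of antisense to sense mean TPM was 28.7% over the 246 pairs with a sense level above 0. In 70 pairs the antisense RNA was under 0.1 of the sense level, and in 69 it exceeded it. SRRM2-AS1, at 1.74 TPM, stood beside 243 TPM of SRRM2, which encodes a scaffold of nuclear speckles. At the other end were members whose sense gene is specific to another tissue and close to 0 here. CD27-AS1 had 13.6 TPM while CD27, a receptor of lymphocytes, had 0.00367. TTN-AS1 had 12.8 TPM while TTN, the giant protein of muscle sarcomeres, had 0.00533. CKMT2-AS1 had 6.53 TPM beside CKMT2, a mitochondrial creatine kinase of muscle, and GPRC5D-AS1 had 16.0 TPM beside GPRC5D, a receptor of plasma cells, each sense gene again under 0.01 TPM. ALOX12-AS1, with 9.24 TPM, lay opposite ALOX12, a lipoxygenase, at 0.004 TPM.

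**Figure D1:**
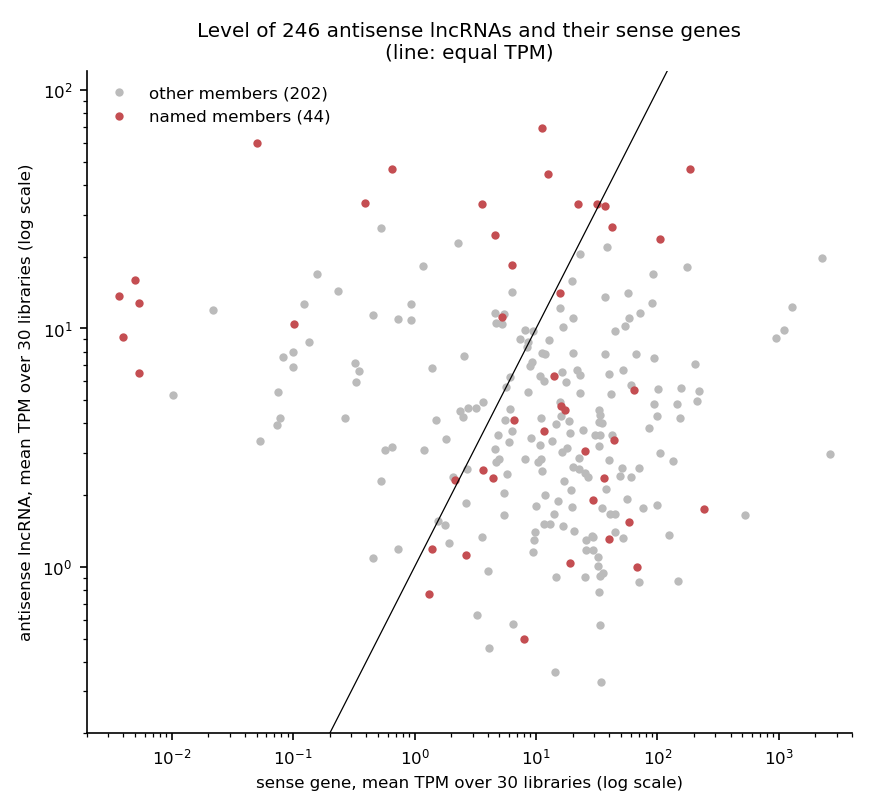
Mean TPM over the 30 libraries of each antisense lncRNA (vertical, log scale) against that of its sense gene (horizontal, log scale) for 246 pairs, with a line at equal levels and the members picked by the naming rule in red. The 69 points above the line include the cluster at the left whose sense genes were under 0.01 TPM, and the antisense levels spread over 0.329 to 69.1 TPM.

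The level of a member varied little between groups. The ratio of its highest to its lowest group mean CPM (counts scaled to library size by TMM, used from here on to compare a gene between groups) had a median of 1.43 and ran from 1.08 for STARD7-AS1 to 3.03 for SLC25A21-AS1. NR2F1-AS1 and NUTM2A-AS1 had ratios of 1.12 and 1.13 and were among the steadiest. The others with the widest range were ZMIZ1-AS1 (2.92), MAP3K4-AS1 (2.84), PCF11-AS1 (2.72) and ZNF503-AS2 (2.68). PD-1/CD27 hybrids held the highest group mean for 76 members, PD-1 hybrids for 7 and PD-1/TIGIT hybrids for 5. The lowest group mean was that of DSLB-free tumoroids for 57 members, of plain DSLB hybrids for 56 and of PD-1 hybrids for 45. These counts were not made over all genes, so they do not show whether the order is particular to the members. Summed over the members, the level was 1911 ± 70.2 CPM in PD-1/CD27 hybrids, 1678 ± 74.9 CPM in PD-1 hybrids and 1663 ± 36.6 CPM in plain DSLB hybrids (SD, n = 3 each), with single libraries at 1832 to 1966, 1599 to 1748 and 1625 to 1698 CPM in the same order. PD-1/CD27 did not overlap with either of the others, and PD-1 and plain DSLB overlapped. This was not particular to CD27. The libraries with CTLA4 (from 1786 CPM), CD2 (from 1782), CD40L (from 1770) and ICOS (from 1763) also lay above both. Those with LAG3 (1703 to 1735) and TIGIT (1688 to 1728) overlapped PD-1, and so did DSLB-free libraries (1674 to 1755). In summed TPM, libraries with CD2 (from 1800), CD40L (from 1820) and CTLA4 (from 1834) overlapped PD-1 (1662 to 1839). Those with CD27 (1877 to 2017) and ICOS (1865 to 1971) did not, but DSLB-free libraries (1792 to 1943) overlapped both. The sum over members was not tested. Summed over all lncRNAs, the level was 13300 to 14040 TPM in PD-1, 13610 to 14200 in plain DSLB and 14200 to 15630 in PD-1/CD27 libraries. In whole cultures, fewer cells of a state and less RNA per cell cannot be told apart.

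With all libraries, PD-1/CD27 hybrids had the largest number of antisense lncRNAs called against PD-1 among the 7 groups that carried a second protein. That order of counts did not hold without the 3 libraries that stood apart and PD-1/CTLA4 replicate 2. Then 6 were called with CD27 (0.296% of all genes), 6 with CD2 (1.38%) and 8 with CTLA4 (6.45%). Of the 252 members, 26 (10.3%) were higher and 1 was lower than in PD-1 hybrids by edgeR's quasi-likelihood test at an adjusted p below 0.05. Of all 18424 genes tested, 2.05% were higher and 0.233% lower (2.29% in either direction). The median log2 fold change was 0.16 over the members and 0.00 over all genes, and 75.4% of members lay above 0, against 49.7% of all genes. Among the largest increases were those of PCF11-AS1 (log2 1.44), SPACA6-AS1 (1.28), NFYC-AS1 (1.15), SRRM2-AS1 (1.12), ARHGEF2-AS2 (1.10), THUMPD3-AS1 (1.08), CCDC18-AS1 (1.06), PSMA3-AS1 (0.96) and GABPB1-AS1 (0.95). Their sense genes encode proteins with unrelated roles, among them a factor of mRNA 3′ end cleavage (PCF11), a subunit of the CCAAT-binding factor NF-Y (NFYC), a 20S proteasome subunit (PSMA3) and a subunit of the ETS-type factor GABP (GABPB1). By orientation, the 26 comprised 10 of the 126 that overlap with distant starts, 10 of the 65 with starts within 1 kb, 4 of the 35 inside the sense gene and 2 of the 16 divergent ones.

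**Figure D2:**
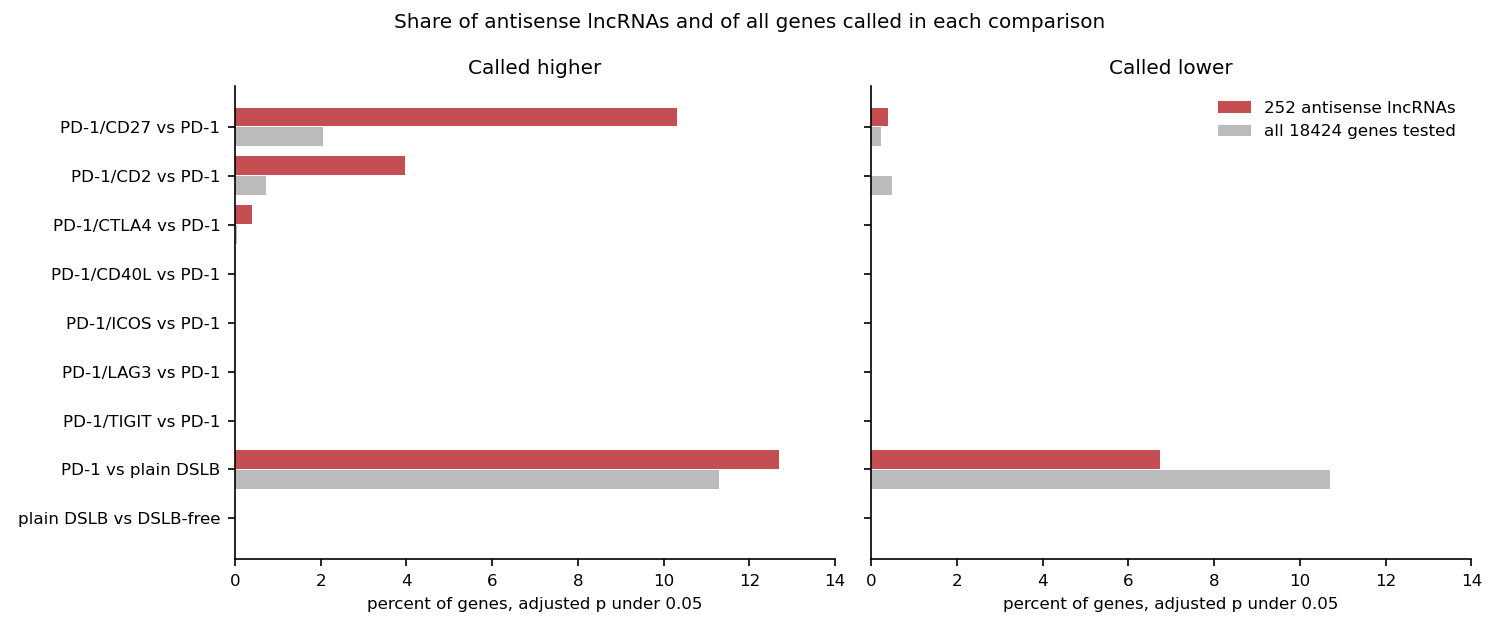
Percent of the 252 antisense lncRNAs (red) and of all 18424 genes tested (gray) called higher (left) or lower (right) at an adjusted p below 0.05 in each of the 9 comparisons, first-named group relative to the second. In PD-1/CD27 against PD-1 the red bar reaches 10.3% and the gray bar 2.05%, whereas in PD-1 against plain DSLB the bars for higher genes are 12.7% and 11.3%.

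THUMPD3-AS1 (ENSG00000206573.7, chr3:9349689-9398579, minus strand) lies opposite THUMPD3, a tRNA methyltransferase, and stood at 26.5 TPM. It had 21.1, 18.2 and 19.1 CPM in PD-1/CD27 hybrids, 18.6, 15.4 and 20.8 CPM in PD-1/CD2 hybrids and 17.0, 13.96 and 13.7 CPM in PD-1/CTLA4 hybrids, against 7.98, 9.14 and 10.5 CPM in PD-1 hybrids. Every library of the 3 groups lay above every PD-1 library. The log2 fold change over PD-1 was 1.08 ± 0.13 (SE, edgeR adjusted p = 3.42e-05) with CD27, 0.98 ± 0.13 (adjusted p = 0.000218) with CD2 and 0.69 ± 0.13 (adjusted p = 0.0340) with CTLA4. THUMPD3 itself changed by -0.06, -0.06 and -0.09 in the same comparisons, with edgeR adjusted p-values of 0.641, 0.699 and 0.537. With CD40L and ICOS the 3 libraries of THUMPD3-AS1 again lay above those of PD-1, at 13.0 to 16.4 and 12.8 to 15.9 CPM, but the differences of 0.63 each had edgeR adjusted p-values of 0.0673 and 0.320. With LAG3 and TIGIT, at 10.3 to 12.1 and 9.80 to 11.2 CPM, they overlapped those of PD-1. These comparisons share the 3 PD-1 libraries. THUMPD3-AS1 passed the test against PD-1 with CD27 and with CD2 under each of the 13 alternatives that kept PD-1 as the reference, 1 of them DESeq2, with adjusted p at most 0.00187 and 0.0339. In plain DSLB hybrids THUMPD3-AS1 had 12.3, 13.3 and 10.1 CPM, overlapping PD-1, and PD-1 over plain DSLB was -0.38 ± 0.13 (edgeR adjusted p = 0.0372).

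PCF11-AS1 (ENSG00000269939.1, chr11:83185521-83187036, minus strand), which lies within exons of PCF11, had 2.41, 1.62 and 1.83 CPM in PD-1/CD27 hybrids, against 0.400, 0.909 and 0.846 CPM in PD-1 hybrids and 1.48, 1.55 and 1.37 CPM in plain DSLB hybrids. PD-1 hybrids lay below both other groups in every library. The log2 fold change was 1.44 ± 0.29 for PD-1/CD27 over PD-1 (edgeR adjusted p = 0.00946) and -1.02 ± 0.30 for PD-1 over plain DSLB (adjusted p = 0.0148). PCF11 changed by 0.30 ± 0.09 (adjusted p = 0.0792) and -0.15 ± 0.10 (adjusted p = 0.285). SPACA6-AS1 (ENSG00000269959.1, chr19:51685363-51693456, minus strand), opposite a gene of a sperm protein needed for fertilization, had 1.95, 1.51 and 2.07 CPM in PD-1/CD27 hybrids, against 0.525, 0.760 and 1.02 CPM in PD-1 hybrids and 1.46, 1.84 and 1.30 CPM in plain DSLB hybrids. Again the PD-1 libraries lay below the others. The log2 fold change was 1.28 ± 0.23 for PD-1/CD27 over PD-1 (edgeR adjusted p = 0.00364) and -1.01 ± 0.23 for PD-1 over plain DSLB (adjusted p = 0.00225). SPACA6 changed by 0.46 ± 0.16 (adjusted p = 0.111) and -0.16 ± 0.16 (adjusted p = 0.505). Both lncRNAs are low, at 1.30 and 0.497 TPM, and PD-1 replicate 1 gave the lowest value of each. The PD-1/CD27 result of PCF11-AS1 did not pass when PD-1 replicate 1 or the first PD-1/CD27 library was left out (edgeR adjusted p = 0.122 and 0.0865, range 0.00899 to 0.122 over the libraries left out in turn), and that of SPACA6-AS1 not without PD-1 replicate 1 (adjusted p = 0.0634, range 0.00280 to 0.0634).

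SRRM2-AS1 (ENSG00000205913.5, chr16:2737076-2752600, minus strand) starts 26 bases from the start of SRRM2 and runs away from it. It had 3.53, 3.33 and 3.87 CPM in PD-1/CD27 hybrids, against 1.55, 1.54 and 1.87 CPM in PD-1 hybrids and 2.54, 2.71 and 2.02 CPM in plain DSLB hybrids. The PD-1/CD27 libraries were the highest and the PD-1 libraries the lowest of the 3 groups, with no overlap. The log2 fold change was 1.12 ± 0.18 for PD-1/CD27 over PD-1 (edgeR adjusted p = 0.00185, and at most 0.0250 under the 13 alternatives that kept PD-1 as the reference, 1 of them DESeq2) and -0.57 ± 0.19 for PD-1 over plain DSLB (adjusted p = 0.0277). SRRM2 changed by -0.04 ± 0.17 and -0.16 ± 0.17 (adjusted p = 0.931 and 0.537). PSMA3-AS1 (ENSG00000257621.6, chr14:58265365-58298134, minus strand) had 44.7, 37.0 and 43.4 CPM in PD-1/CD27 hybrids, 37.3, 28.9 and 54.1 CPM in PD-1/CD2 hybrids, 20.02, 20.9 and 23.7 CPM in PD-1 hybrids and 32.3, 36.0 and 32.8 CPM in plain DSLB hybrids. All PD-1 libraries lay below those of the other 3 groups, and the PD-1/CD2 libraries spread most. The log2 fold change over PD-1 was 0.96 ± 0.16 with CD27 and 0.89 ± 0.16 with CD2 (edgeR adjusted p = 0.00338 and 0.0114), and -0.65 ± 0.16 for PD-1 over plain DSLB (adjusted p = 0.00588). PSMA3 changed by -0.05, 0.12 and 0.17 (adjusted p = 0.840, 0.573 and 0.182).

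The windows from 250 bases before to 50 after the start of these 2 RNAs are shown because the first serves a divergent pair of which the antisense RNA passed the test and the sense gene did not, and the second holds a repeated box. Sequences are those of RefSeq on GRCh38.p14, 5′ to 3′ on the strand of the antisense RNA, with matches to the TATA box (TATAAA), the SP1 box (GGGCGG) and the CCAAT box on either strand in capitals.
SRRM2-AS1, chr16:2752551-2752850, minus strand: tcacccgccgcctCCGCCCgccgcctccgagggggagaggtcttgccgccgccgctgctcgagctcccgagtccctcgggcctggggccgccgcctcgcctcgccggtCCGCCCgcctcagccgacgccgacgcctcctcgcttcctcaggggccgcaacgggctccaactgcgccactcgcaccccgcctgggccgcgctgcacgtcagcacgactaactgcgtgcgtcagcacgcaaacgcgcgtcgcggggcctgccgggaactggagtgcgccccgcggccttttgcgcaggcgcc
PSMA3-AS1, chr14:58298088-58298387, minus strand: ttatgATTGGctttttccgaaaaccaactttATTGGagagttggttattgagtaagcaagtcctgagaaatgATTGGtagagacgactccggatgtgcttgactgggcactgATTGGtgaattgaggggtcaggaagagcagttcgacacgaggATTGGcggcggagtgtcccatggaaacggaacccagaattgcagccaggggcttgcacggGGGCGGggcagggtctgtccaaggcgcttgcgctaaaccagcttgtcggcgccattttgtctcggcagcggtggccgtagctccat
The first is 76.7% G and C with 47 CG dinucleotides and 2 SP1 boxes. The second is 54.3% G and C, with 5 CCAAT boxes, all on the strand opposite the RNA, and 1 SP1 box. Of the 252 members, 200 matched a RefSeq window. The SP1 box occurred in 61.0% of these and 44.9% of all 34943 windows, the CCAAT box in 34.0% and 34.6%, and the TATA box in 5.00% and 11.6%, and the median share of G and C was 65.2% and 58.7%.

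GTF3C2-AS2, AP1G2-AS1 and TRHDE-AS1 were likewise lower in PD-1 hybrids than in both PD-1/CD27 and plain DSLB hybrids. GTF3C2-AS2, opposite a subunit of the RNA polymerase III factor TFIIIC, had 5.12, 3.20 and 4.35 CPM in PD-1/CD27 hybrids, against 2.00, 2.00 and 2.65 CPM in PD-1 hybrids and 3.44, 3.19 and 3.66 CPM in plain DSLB hybrids. PD-1 lay below both without overlap. Its log2 fold change was 0.95 ± 0.20 for PD-1/CD27 over PD-1 and -0.63 ± 0.20 for PD-1 over plain DSLB (edgeR adjusted p = 0.0101 and 0.0250). AP1G2-AS1, opposite a subunit of a clathrin adaptor complex, had 6.95, 5.81 and 7.37 CPM in PD-1/CD27 hybrids, against 2.95, 3.77 and 4.29 CPM in PD-1 hybrids and 5.59, 5.90 and 5.03 CPM in plain DSLB hybrids, with log2 fold changes of 0.88 ± 0.18 and -0.59 ± 0.19 (edgeR adjusted p = 0.0101 and 0.0229). TRHDE-AS1, inside the gene of the enzyme that degrades thyrotropin-releasing hormone, had 1.70, 1.82 and 2.47 CPM in PD-1/CD27 hybrids, against 1.00, 1.28 and 1.14 CPM in PD-1 hybrids and 2.01, 2.13 and 2.13 CPM in plain DSLB hybrids. PD-1/CD27 libraries of TRHDE-AS1 lay above those of PD-1 and overlapped those of plain DSLB, with log2 fold changes of 0.80 ± 0.21 for PD-1/CD27 over PD-1 and -0.87 ± 0.21 for PD-1 over plain DSLB (edgeR adjusted p = 0.0357 and 0.00307). Under the 13 alternatives that kept PD-1 as the reference, the PD-1/CD27 results of GTF3C2-AS2, AP1G2-AS1 and TRHDE-AS1 passed in 7, 8 and 6.

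ZNF687-AS1 was the only member lower in PD-1/CD27 than in PD-1 hybrids by this test. It had 1.02, 1.07 and 0.796 CPM in PD-1/CD27 hybrids, against 1.80, 1.63 and 1.54 CPM in PD-1 hybrids and 1.01, 1.11 and 0.801 CPM in plain DSLB hybrids. PD-1 libraries were the highest, and PD-1/CD27 and plain DSLB libraries overlapped. Its log2 fold change was -0.79 ± 0.18 for PD-1/CD27 over PD-1 (edgeR adjusted p = 0.0150) and 0.76 ± 0.18 for PD-1 over plain DSLB (adjusted p = 0.00307), and ZNF687, a zinc finger gene, changed by -0.15 and -0.04 (adjusted p = 0.182 and 0.673). The PD-1/CD27 result of ZNF687-AS1 passed in 6 of the 13 alternatives that kept PD-1 as the reference. CD27-AS1, opposite the gene whose protein the DSLBs presented, had 8.34, 7.77 and 9.23 CPM in PD-1/CD27 hybrids, against 6.03, 5.36 and 6.47 CPM in PD-1 hybrids. The groups did not overlap, but the log2 difference of 0.51 ± 0.15 did not pass the test (edgeR adjusted p = 0.0692).

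The count of 27 members in PD-1/CD27 against PD-1 depended on single libraries. It was 4 without PD-1 replicate 1 (0.133% of all genes called), 15 without PD-1 replicate 2 (0.81%), 8 without PD-1/CD27 replicate 1 (0.378%) and 11 without PD-1/CD27 replicate 3 (0.442%). It was 5 without the 3 libraries that stood apart (0.247%). With all libraries 2.29% of all genes were called, so the calls fell over all genes as well. THUMPD3-AS1, SRRM2-AS1 and PSMA3-AS1 were among the 4 that passed without PD-1 replicate 1. Other measures moved with the comparison, and their part in it was not tested. Mitochondrial genes took 5.97% ± 0.343 of counts in PD-1/CD27 hybrids and 3.54% ± 0.764 in PD-1 hybrids (SD, n = 3 each). Of 19 transcripts listed for nuclear retention or retained introns, 5 were higher with a list median of log2 0.47, namely MALAT1 (0.90), PNISR (0.84), DDX39B (0.51), TRA2A (0.46) and RBM39 (0.40). Of 25 nuclear RNA decay genes, a list of exosome subunits and adaptors, cap-binding proteins and XRN2, 1 was higher, ZCCHC8 (0.40, edgeR adjusted p = 0.0380), a subunit of the NEXT complex, and the list median was 0.03.

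**Figure D3:**
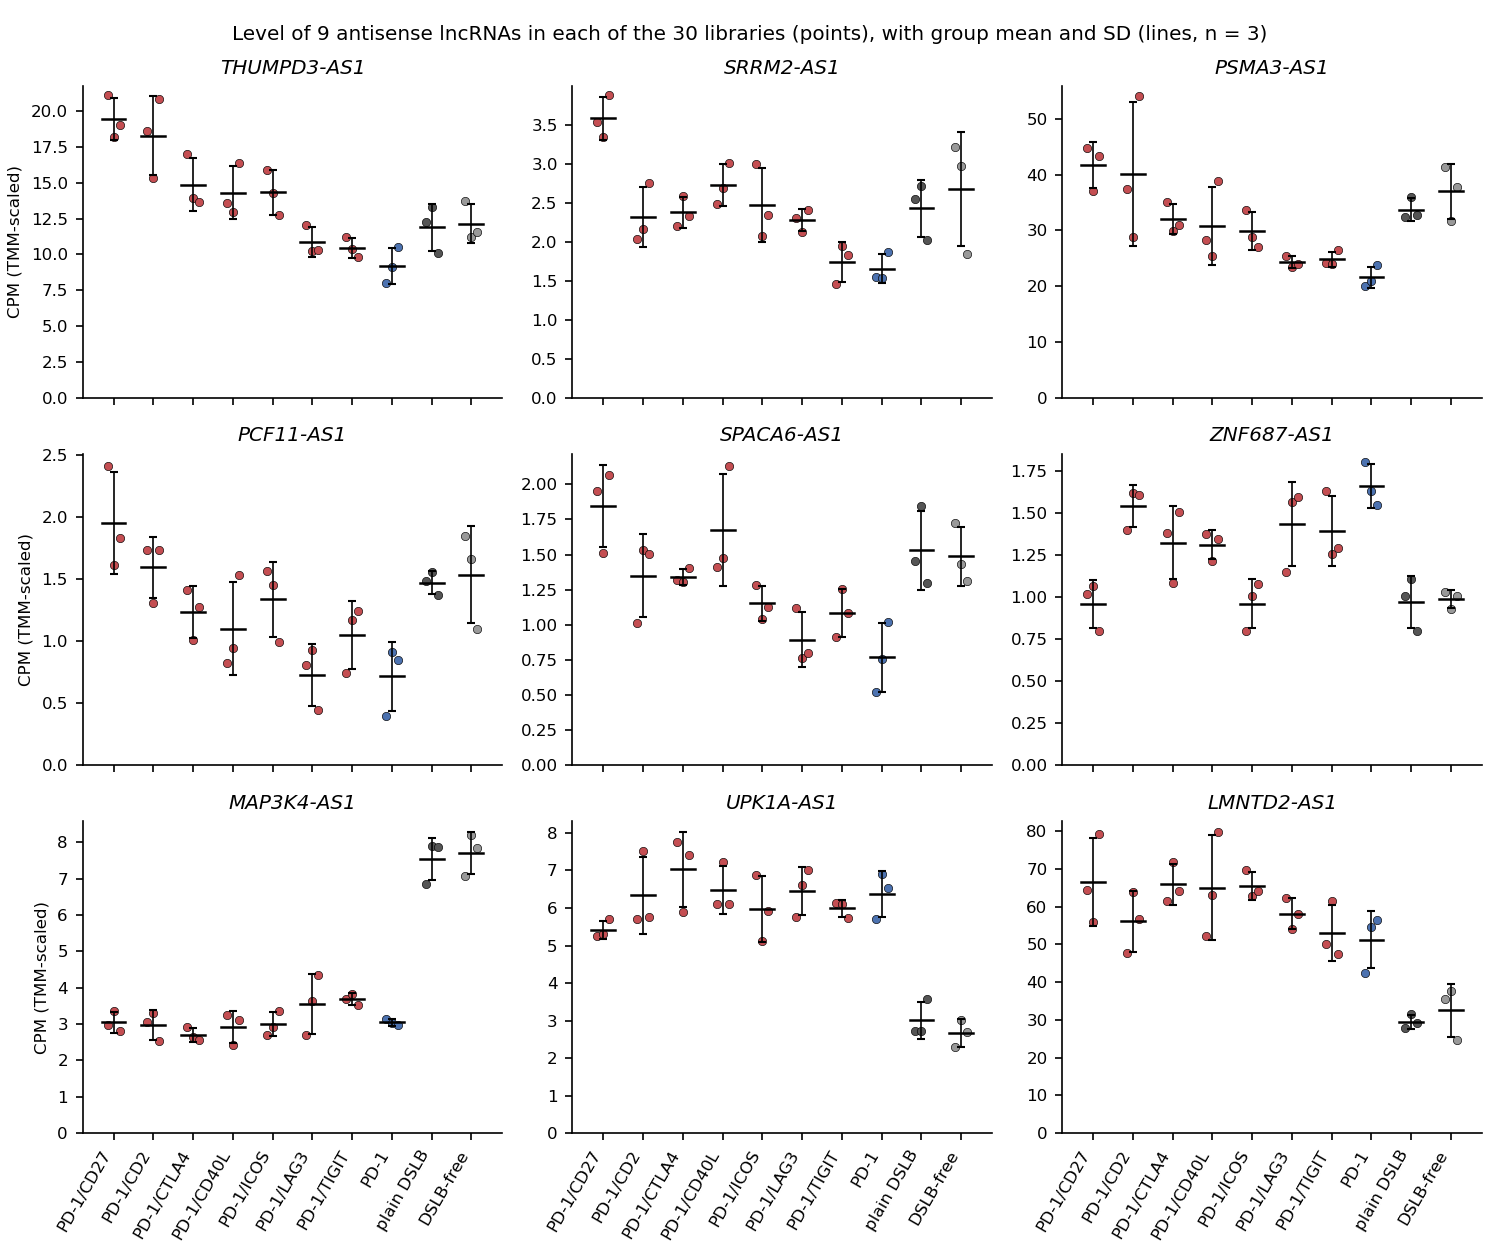
CPM on TMM-scaled libraries (vertical) of 9 antisense lncRNAs in every library (points), with the mean and SD of each group (lines, n = 3), for the 7 groups with a second protein (red), PD-1 (blue), plain DSLB (dark gray) and DSLB-free (light gray). In the top row and in PCF11-AS1 and SPACA6-AS1 the PD-1 group has the lowest mean and PD-1/CD27 the highest, ZNF687-AS1 has the opposite order, and in the bottom row all 24 libraries with protein lie apart from the 6 controls.

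In PD-1/CD2 hybrids 10 members (3.97%) were higher than in PD-1 hybrids and none was lower by edgeR, against 0.733% and 0.499% of all genes tested (1.23% in either direction), and 49 were higher and 3 lower at an unadjusted p below 0.05 (7.82% and 7.56% of all genes). The median over members was log2 0.13. The 10 were NFYC-AS1 (1.05), THUMPD3-AS1 (0.98), PSMA3-AS1 (0.89), CCDC18-AS1 (0.87), GTF3C2-AS2 (0.81), ZNF674-AS1 (0.71), ZNF436-AS1 (0.57), C10orf95-AS1 (0.54), ZNF407-AS1 (0.32) and THAP9-AS1 (0.26). NFYC-AS1 had 2.90, 1.51 and 2.33 CPM in PD-1/CD2 hybrids and 2.61, 2.27 and 2.25 CPM in PD-1/CD27 hybrids, against 0.925, 1.13 and 1.17 CPM in PD-1 hybrids. It did not overlap with PD-1 in either, with log2 differences of 1.05 ± 0.24 and 1.15 ± 0.24 (edgeR adjusted p = 0.0279 and 0.0106), and NFYC changed by -0.06 and 0.05. The 6 control libraries, at 1.325 to 2.396 CPM, overlapped both groups. Against plain DSLB, NFYC-AS1 did not pass in any of the 8 groups with a protein. Of the 13 alternatives that kept PD-1 as the reference, its CD2 result passed in 5 and its CD27 result in 9. THAP9-AS1, among the 10 most abundant members, had 41.7, 38.8 and 40.1 CPM with CD2 and 42.3, 40.8 and 42.0 CPM with CD27, against 33.6, 32.2 and 35.2 CPM in PD-1 hybrids. Its differences were small, at 0.26 ± 0.06 and 0.31 ± 0.06 (edgeR adjusted p = 0.0279 and 0.00579). They passed in 6 of those 13 alternatives with CD2 and in 12 with CD27. The 2 comparisons share the PD-1 libraries.

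The count with CD2 also depended on single libraries. It was 1 when PD-1 replicate 1, PD-1 replicate 2 or PD-1/CD2 replicate 3 was left out (0.0266%, 0.0746% and 0.0533% of all genes called), the remaining call being THUMPD3-AS1 each time. It was 24 without PD-1/CD2 replicate 2 (1.76%). It was 21 by DESeq2 (3.88%), 1 by edgeR on the 6 libraries alone (0.0352%) and 3 without the libraries that stood apart (0.67%). PD-1/CD2 replicate 3 held the highest value of CCDC18-AS1 (35.4 CPM, against 23.0 and 18.1 in the other PD-1/CD2 libraries) and of GABPB1-AS1 (75.5, against 42.0 and 32.2). Mitochondrial genes took 5.08% ± 0.916 of counts in PD-1/CD2 hybrids (SD, n = 3), and MALAT1, TRA2A and RBM39 were the 3 of the 19 nuclear-retained transcripts that passed the test, all higher, with a list median of 0.33 and no nuclear RNA decay gene called.

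With the other proteins few or no members passed. In PD-1/CTLA4 hybrids the only call was THUMPD3-AS1, against 0.0434% of all genes called higher, while 52 members were higher and 2 lower at an unadjusted p below 0.05 (6.79% and 6.49% of all genes), and DESeq2 called 3. That call was lost when PD-1 replicate 1, PD-1 replicate 2 or the first PD-1/CTLA4 library was left out, and 2 members were called without PD-1/CTLA4 replicate 2 (0.4% of all genes). edgeR called no member with CD40L (0.0109% of all genes higher), ICOS, LAG3 or TIGIT (0.0% each). At an unadjusted p below 0.05, 45 members were higher and 4 lower with CD40L (6.49% and 4.86% of all genes), 37 and 5 with ICOS (5.31% and 4.89%), 9 and 1 with LAG3 (3.30% and 2.41%) and 5 and 3 with TIGIT (1.73% and 1.97%), and DESeq2 called 4 with CD40L, 1 with ICOS and none with LAG3 or TIGIT. The medians over members were log2 0.12 with CD40L, 0.13 with CTLA4, 0.09 with ICOS, 0.05 with LAG3 and 0.03 with TIGIT, against at most 0.01 over all genes. Whether the response differed between the second proteins was not tested.

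**Figure D4:**
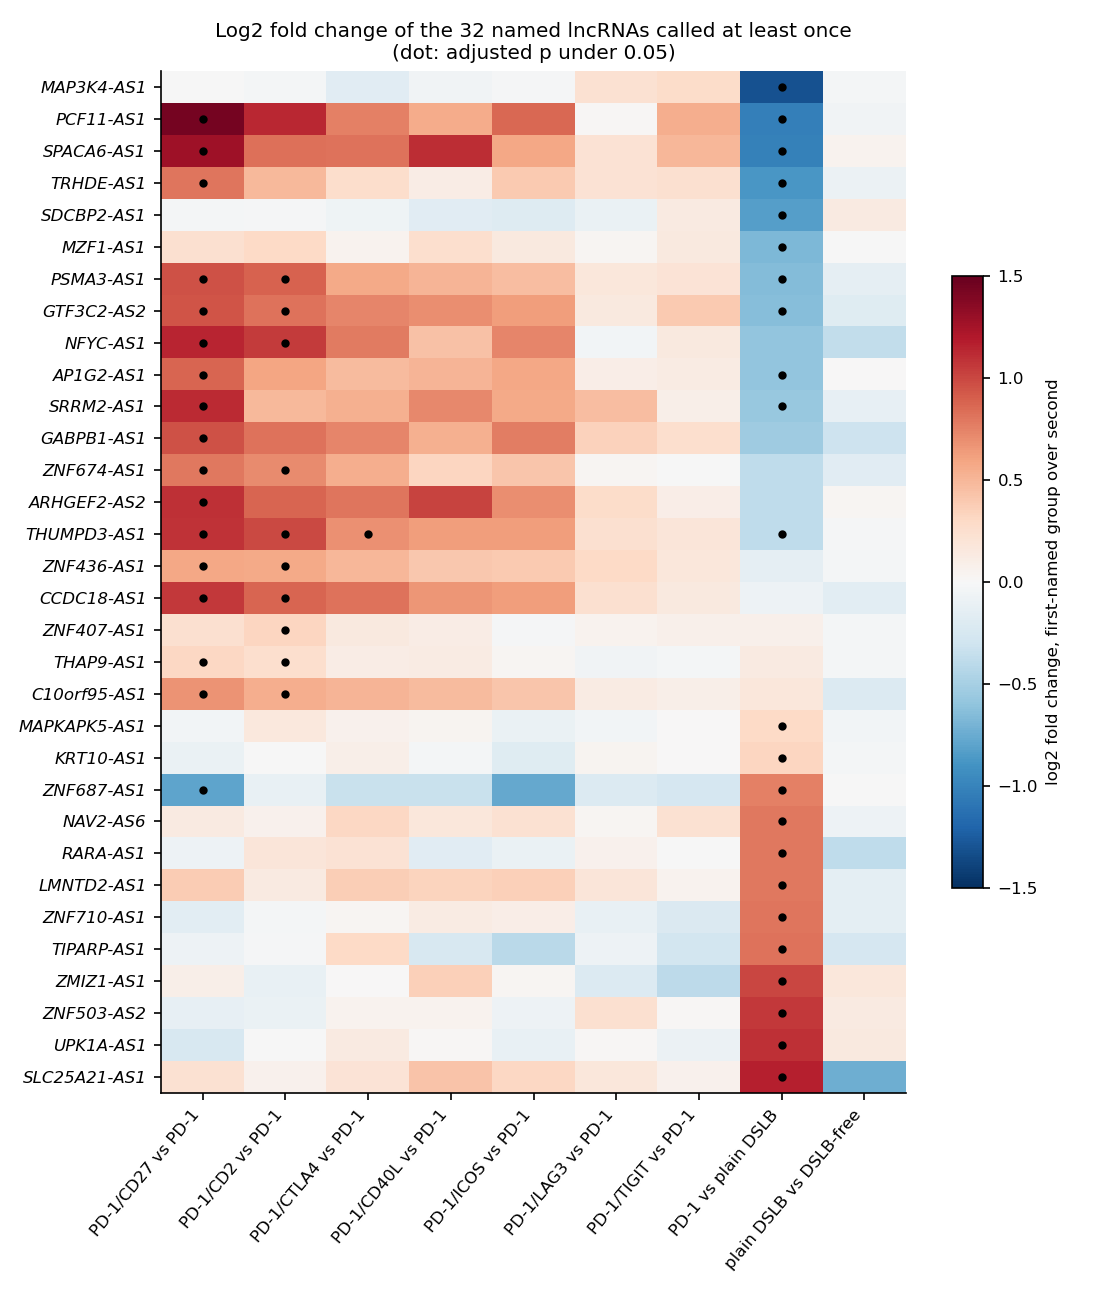
Log2 fold change (color) of 32 named lncRNAs called in at least 1 of the 9 comparisons (rows, ordered by PD-1 against plain DSLB), first-named group over the second, with a dot where the adjusted p is below 0.05. Rows such as PCF11-AS1 and PSMA3-AS1 are blue in PD-1 against plain DSLB and red in PD-1/CD27 and PD-1/CD2 against PD-1, comparisons that share the PD-1 libraries, whereas MAP3K4-AS1, SDCBP2-AS1, MZF1-AS1 and the rows from NAV2-AS6 down have a dot only in PD-1 against plain DSLB.

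Antisense lncRNAs differed in both directions between PD-1 and plain DSLB hybrids, with a share of higher ones near that of all genes. By edgeR 32 members (12.7%) were higher and 17 (6.75%) lower, against 11.3% and 10.7% of all genes tested. The median over members was log2 0.02. The higher ones with the largest changes were SLC25A21-AS1 (1.17), UPK1A-AS1 (1.10), ZNF503-AS2 (1.06), ZMIZ1-AS1 (1.01), TIPARP-AS1 (0.81), ZNF710-AS1 (0.80), LMNTD2-AS1 (0.80), RARA-AS1 (0.79), NAV2-AS6 (0.79) and ZNF687-AS1 (0.76). The lower ones were led by MAP3K4-AS1 (-1.30), PCF11-AS1 (-1.02), SPACA6-AS1 (-1.01), TRHDE-AS1 (-0.87), SDCBP2-AS1 (-0.82), MZF1-AS1 (-0.68) and PSMA3-AS1 (-0.65). Among the members inside their sense gene 10 of 35 were higher and 3 lower, and among those overlapping with distant starts 9 of 126 were higher and 10 lower. The total of 49 (22.0% of all genes called) was 29 without PD-1 replicate 1 (14.9%), 31 without plain DSLB replicate 1 (14.9%) and 32 without plain DSLB replicate 2 (16.2%). PCF11-AS1, SRRM2-AS1, THUMPD3-AS1, GTF3C2-AS2 and AP1G2-AS1 did not pass without PD-1 replicate 1, with edgeR adjusted p-values of 0.0950, 0.0762, 0.148, 0.0813 and 0.107, and each also failed without at least 1 plain DSLB library. Of the higher members named above, TIPARP-AS1, RARA-AS1 and NAV2-AS6 did not pass without PD-1 replicate 1 (edgeR adjusted p = 0.222, 0.0787 and 0.0585). TIPARP-AS1 and RARA-AS1 also did not without plain DSLB replicate 1 (adjusted p = 0.168 and 0.0731), nor TIPARP-AS1 without plain DSLB replicate 3 or PD-1 replicate 2 (0.0582 and 0.0590), nor NAV2-AS6 without plain DSLB replicate 2 (0.138). Of the 19 nuclear-retained transcripts 6 were lower, and of the 25 nuclear RNA decay genes 4 (EXOSC2, SRRT, ZC3H18 and NCBP1, between -0.26 and -0.32). Mitochondrial genes took 3.54% ± 0.764 of counts in PD-1 and 4.90% ± 0.249 in plain DSLB hybrids (SD, n = 3 each), and the part of this in the result was not tested.

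MAP3K4-AS1 (ENSG00000272841.1, chr6:160990318-160992342, minus strand) starts 615 bases from the start of MAP3K4, a kinase upstream of p38 and JNK, and overlaps it. It had 3.15, 3.02 and 2.97 CPM in PD-1 hybrids, against 6.86, 7.90 and 7.86 CPM in plain DSLB hybrids and 7.06, 8.19 and 7.85 CPM in DSLB-free tumoroids. No PD-1 library came near a control. The log2 fold change of PD-1 over plain DSLB was -1.30 ± 0.14 (edgeR adjusted p = 9.87e-08). MAP3K4 had 59.4, 59.98 and 61.2 CPM in PD-1 hybrids, against 93.3, 91.2 and 87.7 CPM in plain DSLB hybrids, a change of -0.59 ± 0.06 (adjusted p = 3.54e-08). Over all 24 libraries with a protein MAP3K4-AS1 ran from 2.42 to 4.35 CPM with a median of 3.04, below all 6 controls (6.86 to 8.19, median 7.85). Both it and MAP3K4 passed the test as lower in each of the 8 groups with a protein against plain DSLB, comparisons that share the 3 plain DSLB libraries.

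ZNF503-AS2 (ENSG00000237149.5, chr10:75401519-75408982, plus strand) starts 245 bases from ZNF503, a zinc finger repressor gene, and rose with it. It had 2.75, 2.17 and 2.33 CPM in PD-1 hybrids, against 1.30, 1.13 and 1.03 CPM in plain DSLB hybrids and 1.13, 1.08 and 0.973 CPM in DSLB-free tumoroids. ZNF503 had 10.8, 11.4 and 10.5 CPM in PD-1 hybrids, against 5.11, 5.37 and 5.91 CPM in plain DSLB hybrids. Neither gene overlapped between the groups. The log2 fold changes were 1.06 ± 0.16 for ZNF503-AS2 and 1.00 ± 0.10 for ZNF503 (edgeR adjusted p = 1.83e-05 and 5.45e-08). Over all libraries with a protein ZNF503-AS2 ran from 1.95 to 3.21 CPM, against 0.973 to 1.30 CPM in the controls. The start windows of MAP3K4-AS1 and ZNF503-AS2 are given since in each of these head-to-head pairs both genes passed the test in the same direction.
MAP3K4-AS1, chr6:160992293-160992592, minus strand: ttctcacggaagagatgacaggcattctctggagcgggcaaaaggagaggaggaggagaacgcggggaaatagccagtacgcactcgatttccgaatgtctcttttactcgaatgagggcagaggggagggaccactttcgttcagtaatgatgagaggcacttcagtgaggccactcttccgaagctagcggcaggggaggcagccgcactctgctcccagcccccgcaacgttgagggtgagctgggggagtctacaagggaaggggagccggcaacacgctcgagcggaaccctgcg
ZNF503-AS2, chr10:75401278-75401577, plus strand: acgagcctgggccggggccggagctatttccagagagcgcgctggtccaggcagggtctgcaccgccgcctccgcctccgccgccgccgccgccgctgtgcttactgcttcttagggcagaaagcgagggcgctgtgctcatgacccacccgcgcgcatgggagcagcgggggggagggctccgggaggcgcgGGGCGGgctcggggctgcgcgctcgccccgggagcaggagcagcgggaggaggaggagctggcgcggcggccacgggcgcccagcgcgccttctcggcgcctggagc
The window of MAP3K4-AS1 is 59.0% G and C and holds none of the 3 boxes, and that of ZNF503-AS2 is 76.7% G and C with 39 CG dinucleotides and 1 SP1 box.

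UPK1A-AS1 (ENSG00000226510.1, chr19:35667948-35673304, minus strand) lies inside UPK1A, the gene of a uroplakin of the bladder lining. It had 5.70, 6.90 and 6.53 CPM in PD-1 hybrids, against 2.73, 2.71 and 3.58 CPM in plain DSLB hybrids and 2.29, 3.01 and 2.71 CPM in DSLB-free tumoroids. PD-1 libraries were all above the controls, with a log2 fold change of 1.10 ± 0.14 over plain DSLB (edgeR adjusted p = 2.57e-06), and UPK1A changed by 0.65 ± 0.15 (adjusted p = 0.00321). LMNTD2-AS1, the most abundant member, had 42.5, 54.7 and 56.4 CPM in PD-1 hybrids, against 27.8, 31.5 and 29.2 CPM in plain DSLB hybrids and 35.5, 37.7 and 24.6 CPM in DSLB-free tumoroids. It was again higher in every PD-1 library, by 0.80 ± 0.16 over plain DSLB (edgeR adjusted p = 0.00104), with LMNTD2 at 0.42 ± 0.13 (adjusted p = 0.0164). SLC25A21-AS1, beside the gene of a mitochondrial carrier, had 1.35, 1.41 and 1.40 CPM in PD-1 hybrids, against 0.556, 0.737 and 0.534 CPM in plain DSLB hybrids and 1.03, 0.875 and 1.17 CPM in DSLB-free tumoroids, and its difference of 1.17 ± 0.23 passed (edgeR adjusted p = 0.00056) while that of SLC25A21 was 0.22 ± 0.15 (adjusted p = 0.314).

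In other pairs the sense gene did not pass the test, or passed in the opposite direction. SDCBP2-AS1, opposite the syntenin-2 gene, had 2.10, 2.06 and 2.19 CPM in PD-1 hybrids, against 3.87, 3.45 and 3.93 CPM in plain DSLB hybrids, without overlap. Its log2 fold change was -0.82 ± 0.14 (edgeR adjusted p = 0.000134), and SDCBP2 changed by 0.14 ± 0.15 (adjusted p = 0.536). AFAP1-AS1, named here after its values were seen, is opposite the gene of an actin filament-associated protein and had 41.3, 46.2 and 45.0 CPM in PD-1 hybrids, against 56.5, 57.9 and 59.8 CPM in plain DSLB hybrids. AFAP1 had 272, 289 and 253 CPM in PD-1 hybrids, against 199, 184 and 209 CPM in plain DSLB hybrids. Neither overlapped between the groups, and both passed in opposite directions, AFAP1-AS1 at -0.39 ± 0.10 (edgeR adjusted p = 0.00559) and AFAP1 at 0.46 ± 0.11 (adjusted p = 0.00389). KRT10-AS1 had 19.2, 19.8 and 20.4 CPM in PD-1 hybrids, against 15.6, 15.7 and 16.0 CPM in plain DSLB hybrids, a difference of 0.33 ± 0.09 (edgeR adjusted p = 0.00678), and KRT10, a keratin gene, changed by -0.23 ± 0.08 (adjusted p = 0.0452).

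The calls of lncRNAs were also set beside those of their sense genes. In PD-1 against plain DSLB 47 of the called members had a tested sense gene, of which 14 were called, 10 in the same direction and 4 in the opposite one. Of all 231 tested pairs, 60 sense genes (26.0%) were called, against 22.0% of all genes. Across the pairs, which are genes measured in the same libraries and not independent replicates, Pearson's r between the log2 fold changes was 0.22. In PD-1/CD27 and PD-1/CD2 against PD-1, 26 and 9 of the called members had a tested sense gene and none of these was called, where 4 of the 231 sense genes (1.73%) were called in each comparison, and r was 0.13 and 0.11. The difference between the fold changes of a lncRNA and of its sense gene was not tested.

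**Figure D5:**
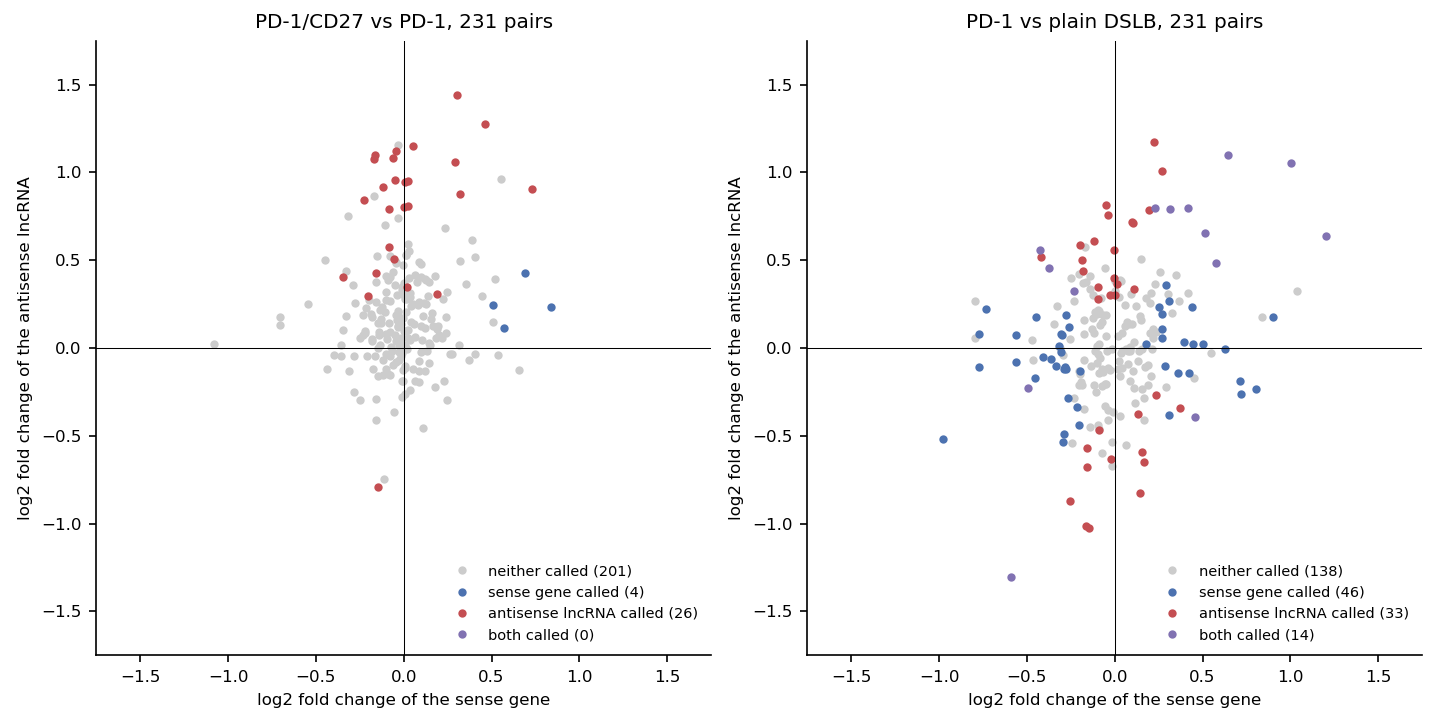
Log2 fold change of the antisense lncRNA (vertical) against that of its sense gene (horizontal) for the 231 pairs with both genes tested, in PD-1/CD27 against PD-1 (left) and PD-1 against plain DSLB (right), colored by which of the pair passed an adjusted p of 0.05. On the left no pair has both genes called, and on the right 14 do, with MAP3K4-AS1 at the lower left and ZNF503-AS2 at the upper right.

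Across all 8 groups with a protein, 16 members (6.35%) lay higher in each of the 24 libraries than in any of the 6 control libraries and 4 (1.59%) lay lower, against 4.43% and 5.11% of all genes tested. Besides those described, ZMIZ1-AS1 ran from 1.41 to 2.78 CPM with a protein and from 0.707 to 1.30 CPM in the controls, NAV2-AS6 from 1.10 to 1.92 and from 0.474 to 1.00 CPM, and ZNF710-AS1 from 3.97 to 6.40 and from 2.74 to 3.83 CPM. These are loci of a transcriptional coactivator (ZMIZ1), a neuron navigator (NAV2) and a zinc finger gene (ZNF710). The 4 lower ones were MAP3K4-AS1, SDCBP2-AS1, AFAP1-AS1 and ENTPD1-AS1, the last at 4.09 to 5.63 CPM with a protein and 5.76 to 6.57 CPM in the controls and named after its values were seen. PD-1/CD27 hybrids had 68 members higher and 6 lower than plain DSLB hybrids by edgeR (12.4% and 11.4% of all genes), and PD-1/TIGIT hybrids 32 and 10 (10.9% and 11.6%). The counts were 60 and 8 with CD2 (14.1% and 15.4%), 58 and 6 with CD40L (13.2% and 12.3%), 67 and 12 with CTLA4 (17.0% and 17.2%), 38 and 7 with ICOS (9.81% and 9.8%) and 43 and 18 with LAG3 (16.2% and 14.1%). All of these share the plain DSLB libraries.

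No antisense lncRNA passed the test for the lipid droplets alone. Between plain DSLB hybrids and DSLB-free tumoroids edgeR called no member, and 0.0109% of all genes tested were called, with 6 members higher and 7 lower at an unadjusted p below 0.05 (3.70% and 2.40% of all genes), and DESeq2 called none. The median over members was log2 -0.03, and the median standard error of a member's log2 fold change was 0.16. SLC25A21-AS1, at 0.556, 0.737 and 0.534 CPM in plain DSLB hybrids against 1.03, 0.875 and 1.17 CPM in DSLB-free tumoroids, did not overlap and did not pass (log2 -0.73 ± 0.24, edgeR adjusted p = 0.668).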

How the data were processed

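RNA-seq was done on 30 libraries, 3 for each of 10 groups, made with a directional kit and read as single reads. Per the labels and the study's methods, the authors trimmed reads with Trim Galore 0.3.3, checked them with FastQC 0.11.2, used SAMtools 1.3.1, aligned to hg38 with STAR and deposited gene-level expected counts and TPM from RSEM. The sources used here give no annotation release, strand setting of the counting or poly(A) step, and a wrong strand setting would mix an antisense RNA with its sense gene. Expected counts were rounded to whole numbers.

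All 30 libraries were fitted in a single model with edgeR 4.0.16 (R 4.3.3), with TMM scaling, filterByExpr (18424 genes kept) and the robust quasi-likelihood test. P-values were adjusted by Benjamini-Hochberg over all genes tested, and the threshold was 0.05. CPM on TMM-scaled libraries compared a gene between groups, and deposited TPM compared genes with each other. A pair was placed by GENCODE v44. Start windows of 300 bases came from RefSeq on GRCh38.p14. On simulated counts for PD-1/CD27 against PD-1, edgeR recovered 77 of 100 genes changed by log2 0.5 and 93 of 100 changed by log2 1, with 4 false calls among 18178 genes. The changed genes were drawn from all genes with a mean above 1 CPM, and no simulated library stood apart. These rates therefore need not hold for the lowest members or where calls depended on single libraries. Alternatives were DESeq2 1.42.0, the 6 compared libraries alone, RLE size factors, no filter, a block for the replicate number, comparison with plain DSLB and each library left out. Leaving out the 3 libraries that stood apart, or those and PD-1/CTLA4 replicate 2, was added after seeing the data.

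The members and lists were chosen with earlier results of these data known. Named were up to 10 members with the highest mean TPM, per comparison up to 10 with the largest rise and 10 with the largest fall past the threshold, the 5 with the widest and the 3 with the narrowest range of group means, the 5 with the highest antisense to sense ratio, and PCF11-AS1, SPACA6-AS1 and THUMPD3-AS1, each with its sense gene, and the genes next to the minimum count. A member that the rule also names is not reported here.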

Additional observations from a re-analysis of the deposited data

How the results depend on the processing

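The counts of called antisense lncRNAs in the comparisons with PD-1 depended on the settings, and the cause was not tested. The share of all genes called under the same setting is in parentheses. DESeq2 called 21 with CD2 (3.88%), 4 with CD40L (0.572%), 3 with CTLA4 (0.348%) and 1 with ICOS (0.0179%). edgeR on the 6 compared libraries called 1 with CD2 (0.0352%) and 0 with CTLA4 (0.0469%). Without the filter on low counts it called 24 with CD2 (2.07%), 14 with CD40L (1.2%), 15 with CTLA4 (1.75%), 10 with ICOS (1.11%), 1 each with LAG3 (0.721%) and TIGIT (0.315%) and 1 between plain DSLB and DSLB-free (0.498%). With plain DSLB as the reference, another comparison, it called 68 with CD2 (29.6%), 74 with CD27 (23.8%), 64 with CD40L (25.5%), 79 with CTLA4 (34.2%), 45 with ICOS (19.6%), 61 with LAG3 (30.3%) and 42 with TIGIT (22.5%). Without the 3 libraries that stood apart the count was 3 with CD2 (0.67%), 5 with CD27 (0.247%) and 0 with CTLA4 (0.0215%), and without these and PD-1/CTLA4 replicate 2 it was 6 with CD2 (1.38%), 6 with CD27 (0.296%) and 8 with CTLA4 (6.45%). Leaving out each library in turn gave 1 to 24 with CD2, 4 to 30 with CD27, 0 to 1 with CD40L (1 without PD-1 replicate 3), 0 to 2 with CTLA4 and 29 to 46 for PD-1 against plain DSLB, and 0 in the other comparisons. Over the same fits the share of all genes called was 0.0266% to 2.88% with CD2 and 0.133% to 3.24% with CD27. It was 0.00533% to 0.0746% with CD40L, 0.00532% to 0.4% with CTLA4 and 14.9% to 17.5% for PD-1 against plain DSLB. TRHDE-AS1 in PD-1/CD27 turned to log2 -0.0688 when set against plain DSLB (edgeR adjusted p = 0.842). Of the other values of named lncRNAs and settings, 515 stayed on their side of the threshold and 189 no longer passed it.

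With the replicate number as a block, edgeR called 10 with CD2 (1.42% of all genes), 27 with CD27 (2.43%), 1 with CTLA4 (0.0434%) and 48 for PD-1 against plain DSLB (22.6%), of which 9, 26, 1 and 48 were also called without it. A pairing of samples by number was not apparent, as the correlations of same-numbered libraries ran from -0.236 to 0.292 and in 0 comparisons were all pairs over 0.1. With 3 libraries per group these correlations cannot decide whether the numbers mark sets of cultures made together. The lowest members, such as SPACA6-AS1 at 0.497 TPM, rest on few reads.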
